A study of Cornus officinalis with 7 samples.

Results

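Pericarp and seed, the fleshy wall of the *Cornus officinalis* fruit and what it encloses, were compared by the level of each assembled transcript (unigene). A unigene was compared when its FPKM, the number of fragments scaled by unigene length and by the size of the library, was at least 1 in pericarp or in seed. This held for 123838 of the 304371 unigenes (40.7%). Of the other 180533 unigenes, 123511 were listed at 0 in both tissues and 57022 were above 0 but below 1. The difference was taken as log2((pericarp FPKM + 1)/(seed FPKM + 1)), so that positive values stand for a higher level in pericarp, and the added 1 makes the differences of weakly expressed unigenes smaller.

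Both libraries came from the same plant material, labelled as 12 years old and grown untreated under natural conditions in a medicinal plant garden. The series also holds leaf and stem, each at a young and a mature stage, and inflorescence of that material, with 1 strand-specific mRNA library per tissue. No fruit stage is labelled, and whether the seed sample included the hard stone around the embryo is not stated. With 1 library per tissue no difference could be set against replicate error, so the differences below are descriptions of these libraries without p-values.

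*C. officinalis* fruit is used medicinally as the dried pericarp. Its best known constituents are iridoid glucosides such as loganin and morroniside, pentacyclic triterpenoids such as ursolic and oleanolic acid, and gallotannins. Iridoids are built from geranyl diphosphate, triterpenoids from farnesyl diphosphate by way of squalene, and gallotannins from gallic acid, which branches off the shikimate pathway. Cytochromes P450 (P450s) are a large family of oxygenases that decorate many of these skeletons. The study assigned enzyme names to unigenes by sequence similarity, and these names place 83 unigenes in an iridoid list, 182 in a triterpenoid list, 37 in a gallotannin list and 262 in a P450 list. Together they cover 549 unigenes, because 3 unigenes are listed both as geranyl and as farnesyl diphosphate synthase, and 12 of the iridoid unigenes are also in the P450 list. The study narrowed each pathway list to a smaller set of candidate genes whose levels ran alike across the tissues. The full lists are used here, so a listed unigene is not always one that the study assigned to the pathway.

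The libraries differed in how their signal was spread and, by an estimate, in depth. The FPKM values summed to 975250 in pericarp and 888653 in seed. On 4228 unigenes above 0 in only these 2 tissues, the commonest ratio of pericarp to seed FPKM was about 1.37, held by 1047 of them (24.8%). If this is the ratio of 1 fragment in each library, pericarp was sequenced less deeply. No counts were available to check this. The 10 strongest unigenes held 10.8% of the pericarp sum and 6.84% of the seed sum, and 50% of the sum lay on 1646 unigenes in pericarp and on 2601 in seed. In bulk tissue, fewer cells of a type and less RNA per cell cannot be told apart, which holds for each difference below. No marker of pericarp or seed was available by unigene, so the tissue labels were not checked against markers. In mature stem 94.5% of the compared unigenes were listed at 0, so this library was left out of the comparisons across tissues, which use the other 6.

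Pericarp and seed each had a large set of more highly expressed unigenes. A difference of at least 2-fold in FPKM + 1 was found in the direction of pericarp for 30493 unigenes (24.6%) and in the direction of seed for 33790 (27.3%), while 59555 (48.1%) lay within 2-fold. A compared unigene listed at 0 in the other tissue passes 2-fold by construction, because it has at least 1 FPKM and 1 is added. This was so for 21305 of the unigenes called in pericarp and 26693 of those called in seed. The larger number in seed depended on weakly expressed unigenes: at a limit of 5 FPKM there were 6796 in pericarp and 5750 in seed, and with 5 added in place of 1 there were 4576 and 3821. At 4-fold there were 6755 (5.45%) and 6852 (5.53%). The median difference was -0.03 and the middle 50% lay between -1.06 and 0.97. The sets carried much of each tissue's signal. The unigenes higher in pericarp held 44.6% of the pericarp FPKM sum and 8.2% of the seed sum, and those higher in seed held 35.7% of the seed sum and 3.44% of the pericarp sum.

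**Figure D1:**
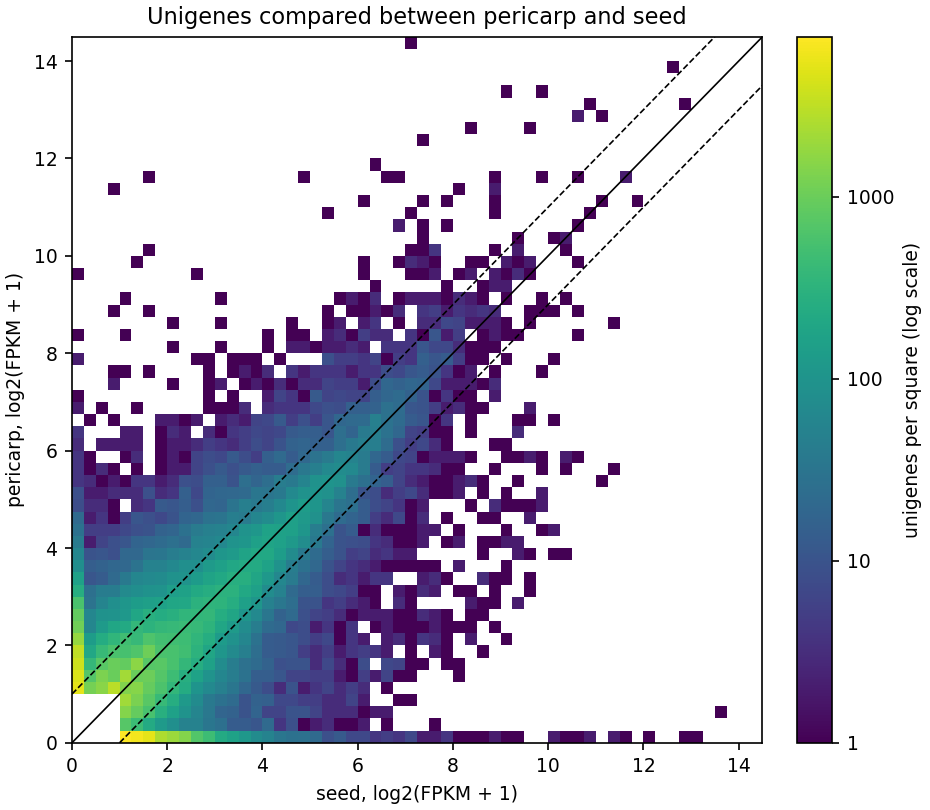
Level in seed (x axis) against pericarp (y axis) for 123838 compared unigenes, both as log2(FPKM + 1), in squares of 0.25 coloured by the number of unigenes. The solid line marks equal levels and the dashed lines a 2-fold difference in FPKM + 1; the row of squares along the bottom reaches far to the right, where unigenes with an FPKM of up to 12606 in seed were at or near 0 in pericarp.

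Most compared unigenes were weakly expressed, and the balance between the tissues shifted with the level. In 61.3% the higher of both values was between 1 and 3, and there 24.4% were higher in pericarp and 30% in seed. Between 100 and 1000 FPKM the shares were 27.5% and 24.1%, and among the 92 unigenes with at least 1000 FPKM they were 48.9% and 34.8%. The part of the estimated depth difference in this shift was not tested. The 9047 unigenes with at least 10 FPKM in both tissues had a median ratio of -0.00 on the log2 scale. When both libraries were rescaled to the same sum (TPM), the ratio of pericarp to seed shifted by -0.13 on the log2 scale before the 1 is added, the median difference became -0.17, and the counts became 29831 for pericarp and 38194 for seed.

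The most extreme differences were on the seed side. At 32-fold or more, 210 unigenes were higher in seed and 78 in pericarp, and these held 11.1% of the seed sum and 5.91% of the pericarp sum. Of unigenes with at least 100 FPKM in one tissue, 36 of the seed were listed at 0 in pericarp and 7 of the pericarp were listed at 0 in seed. A value of 0 may come from an estimate that failed, so these unigenes are described only as listed at 0, and no fold is given for them.

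Within the plant, the contrast inside the fruit was of moderate size. Of the 15 pairs among the 6 tissues, the share of compared unigenes that differed by at least 2-fold ran from 42.3% between young and mature leaf to 62.7% between mature leaf and inflorescence. Pericarp and seed differed in 51.9%, which was place 12 of 15, and shared a Pearson r of 0.56 across unigenes. Pericarp differed from the leaves in 55.8% (young) and 56.2% (mature), and seed in 58.1% and 59.8%. From inflorescence they differed in 60.5% and 60%. By this count the 2 fruit tissues stood closer to each other than either did to the leaves, but by Pearson r pericarp was as close to young leaf (0.57) and mature leaf (0.56) as to seed. By the count, young stem was about as close, at 52.1% to pericarp and 50.2% to seed. The pairs without a fruit tissue that lay between these extremes differed in 48.3% (young leaf and young stem), 54.4% (mature leaf and young stem), 54.5% (young stem and inflorescence) and 60.1% (young leaf and inflorescence). These pairs share libraries and were not tested against each other.

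Unigenes strongly higher in one fruit tissue mostly had their highest level of the 6 tissues there as well. The comparison favours this, since unigenes entered it by their level in pericarp or seed and were then split by the higher of both. Of the unigenes within 2-fold, 25.5% were highest in pericarp and 24.4% in seed. At 2-fold the tissue of the higher level was the highest of the 6 for 64.2% of the unigenes higher in pericarp and 66.1% of those higher in seed. Of the 6852 unigenes higher in seed by 4-fold, 5938 (86.7%) had their highest value of the 6 tissues in seed. Of the 6755 higher in pericarp, 5199 (77%) had it in pericarp. At 32-fold the shares were 96.2% of 210 and 65.4% of 78. In the other 27 of these 78 unigenes (34.6%), a leaf, young stem or inflorescence reached at least the pericarp level, against 8 of 210 (3.81%) on the seed side. In those 27 the level in seed was low while the level in pericarp was reached or passed elsewhere in the plant.

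**Figure D2:**
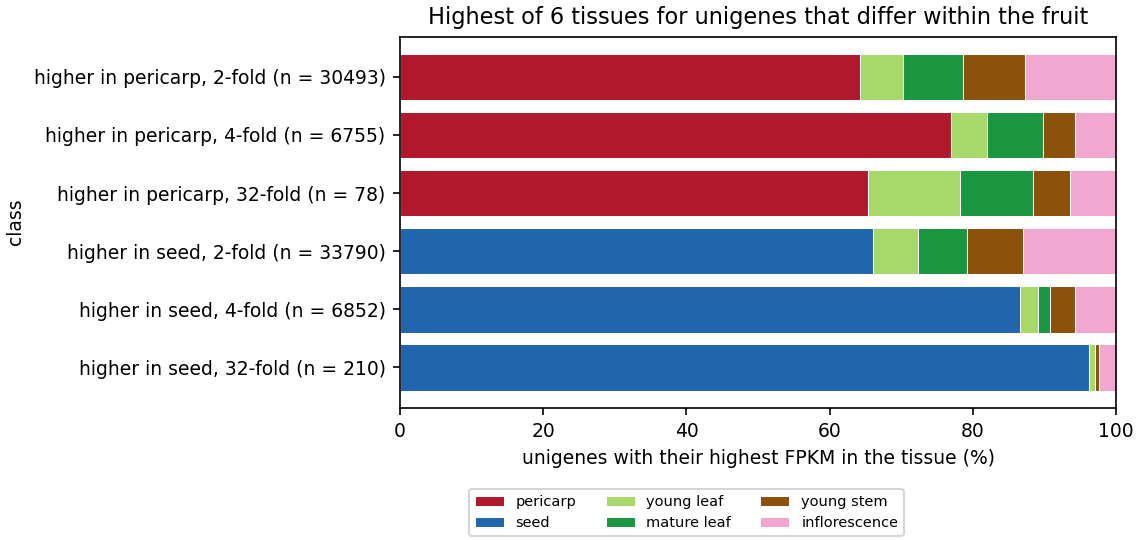
Bars show, for unigenes higher in pericarp or in seed by at least 2-fold, 4-fold or 32-fold, the percentage with their highest FPKM in each of 6 tissues (mature stem left out). Seed is the highest tissue for 96.2% of the 210 unigenes higher in seed by 32-fold, and pericarp for 65.4% of the 78 on the other side.

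The 2 sides also differed in which tissue came next. Among the 1551 unigenes with at least 10 FPKM in seed and a 4-fold higher level there, 1409 were above 0 in some tissue outside the fruit, and in 735 of these (52.2%) the highest such tissue was young stem. Among the 1494 corresponding pericarp unigenes, 1386 were above 0 elsewhere, and mature leaf came first with 471 (34%), ahead of young stem (22.9%), inflorescence (22.7%) and young leaf (20.4%). No such share over all compared unigenes is given to set these against. Young stem also had more unigenes above 0 (151729) than young leaf (126910), mature leaf (127640) or inflorescence (126561). Of the compared unigenes, 33630 (27.2%) stayed below 1 FPKM in both leaves, young stem and inflorescence. They included 13339 with at least 1 FPKM in pericarp alone, 15290 in seed alone and 5001 in both. At 10 FPKM or more these numbers fell to 114, 269 and 112.

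The unigenes with the largest differences towards seed were almost silent elsewhere. The unigene with the highest seed level, Unigene042433, had an FPKM of 12606 in seed, 0.53 in pericarp, 1.22 in young stem and 0.40 in young leaf, and was listed at 0 in mature leaf, mature stem and inflorescence. Unigene222074 had 9578 in seed and 0.18 in mature leaf and was listed at 0 in the other 5 tissues, pericarp included. Unigene266284 had 8053 in seed, 0.07 in mature leaf and 0.12 in young stem, with a listed 0 in the other tissues. These 3 were followed by Unigene263457 (4291 in seed), Unigene273232 (3427), Unigene303493 (2870), Unigene303492 (2835) and Unigene047382 (1961). Together these 8 unigenes held 5.13% of the seed FPKM sum, and their pericarp values added up to 0.62, with 6 of them listed at 0 there. These 8, which include the 3 highest unigenes of the seed library, were thus at or near 0 in the pericarp library. None of these unigenes has a gene name in the sources used here, and so none is given.

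Most of the 8 unigenes with the largest differences towards pericarp were also high outside the fruit. Unigene222075 had an FPKM of 2490 in pericarp, 0.99 in seed, 2134 in inflorescence, 325 in young stem, 19.1 in young leaf and 0.93 in mature stem, and was listed at 0 in mature leaf. Unigene213836 had a like profile, with 3026 in pericarp, 1.95 in seed, 2055 in inflorescence, 372 in young stem, 27.0 in young leaf, 1.08 in mature leaf and 1.80 in mature stem. Their FPKM + 1 was 1252-fold and 1026-fold higher in pericarp than in seed. Unigene284434 was high in every tissue except seed (2.03) and mature stem (0.26), with 1215 in pericarp, 2107 in young leaf, 571 in mature leaf, 1240 in young stem and 1854 in inflorescence. Unigene145351 had 883 in pericarp, 1.47 in seed and 5472 in inflorescence, and Unigene140744 had 507, 0.99 and 768. Unigene086251, Unigene139182 and Unigene001444 had 773, 304 and 253 in pericarp and were listed at 0 in seed. Unigene086251 also had 649 in inflorescence and 105 in young stem, and Unigene139182 had 66.6 in young stem and 54.7 in inflorescence. Unigene001444 was the exception, with at most 3.65 in the leaves, young stem and inflorescence and 64.6 in mature stem. In 3 of the 8 most pericarp-biased unigenes another tissue was higher than pericarp. All 8 added up to 0.969% of the pericarp sum and to an FPKM of 7.43 in seed.

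A different group of unigenes set the top of the pericarp library, and these were present in seed as well. Unigene139399 reached 21483 FPKM in pericarp and 143 in seed, with 3304 in young leaf, 4543 in mature leaf, 4736 in young stem, 1204 in inflorescence and 4.54 in mature stem. Unigene290988 was the clearest fruit unigene among them, with 11302 in pericarp, 920 in seed and 102 in inflorescence, and at most 0.70 in the leaves and stems. Unigene073630 had 10503 in pericarp and 563 in seed, while its values in the leaves, young stem and inflorescence lay between 128 and 428. Unigene259514 was the one unigene among the 5 highest of both tissues, with 15131 in pericarp and 5847 in seed. Unigene285931 had 9064 in pericarp and 1751 in seed, and Unigene099052, among the highest of seed, was nearly level at 8736 in pericarp and 7553 in seed. These 6 again carry no gene name in the sources used here.

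Iridoid unigenes lay mostly on the pericarp side or within 2-fold. Of the 83 listed, 56 were compared and 27 were below 1 FPKM in both fruit tissues. Of the 56, 27 (48.2%) were at least 2-fold higher in pericarp and 7 (12.5%) in seed, beside 24.6% and 27.3% of all compared unigenes, and 22 lay within 2-fold. This background is not matched by level, since in 61.3% of it the higher fruit value was between 1 and 3. At a limit of 5 FPKM the shares were 46.5% and 11.6%, beside 23.1% and 19.6% of all unigenes at that limit. At 4-fold there were 12 (21.4%) and 4 (7.14%), beside 5.45% and 5.53% of all compared unigenes. The median difference was 0.83, beside -0.03 for all compared unigenes, and 0.64 after rescaling to TPM. The summed iridoid level was 1804 FPKM in pericarp and 776 in seed. Pericarp was the highest of the 6 tissues for 12 of the 27, so most of these iridoid unigenes had a higher level outside the fruit. The share was 64.2% over all unigenes that were 2-fold higher in pericarp, which are not matched by level. Of the 27 unigenes below 1 FPKM in both, 15 were listed at 0 in both and 15 had their highest value in mature stem.

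**Figure D3:**
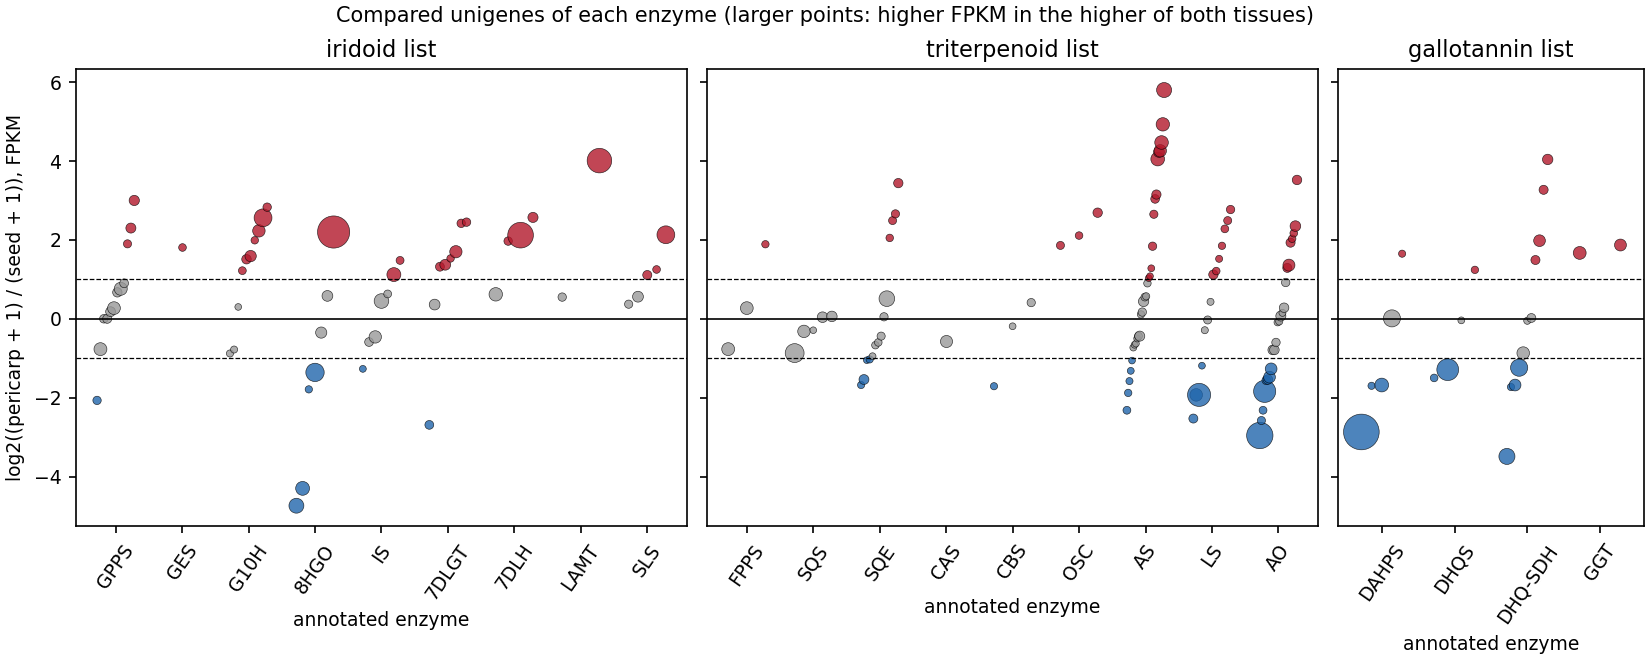
Difference between pericarp and seed, as log2 of the ratio of FPKM + 1, for every compared unigene of each enzyme in the iridoid, triterpenoid and gallotannin lists; enzymes without a compared unigene and those with 1 compared unigene of the triterpenoid abbreviations DH and DS are left out. Red points are at least 2-fold higher in pericarp, blue points in seed and grey points within 2-fold (dashed lines); in the iridoid panel 27 points are red and 7 blue.

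The first iridoid steps showed a mixed picture. Geranyl diphosphate synthase (GPPS), which makes the C10 precursor, summed to 163 FPKM in pericarp and 124 in seed over 19 unigenes, of which 12 were compared, 3 were higher in pericarp and 1 in seed. These sums include the 3 unigenes also listed as farnesyl diphosphate synthase, of which Unigene214527 made up 26.8% of the seed sum. The GPPS unigene with the highest fruit level, Unigene113028, had 34.1 in pericarp and 19.7 in seed. Both were below its levels in inflorescence (68.1), mature leaf (66.7) and young leaf (58.0), and it had 16.6 in young stem and 0.11 in mature stem. Unigene224044 differed more, with 14.6 in pericarp and 0.95 in seed, and was highest in pericarp, before young stem at 13.0. Unigene116310 had 13.2 in pericarp and 1.88 in seed but was highest in young leaf, at 49.7. Geraniol synthase (GES), the first enzyme after that precursor, was barely expressed in the fruit. Of 7 GES unigenes only Unigene290657 was compared, at 3.52 in pericarp and 0.27 in seed. The one unigene named GGPS in this list, Unigene078051, was not compared, with a listed 0 in pericarp, 0.08 in seed and 25.5 in mature stem.

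Geraniol 10-hydroxylase (G10H), the P450 that oxidises geraniol, was higher in pericarp for 7 of its 10 compared unigenes and in seed for none, and its sum was 169 FPKM in pericarp and 35.5 in seed. Unigene134292 carried 54.7% of the pericarp sum. It had 92.4 in pericarp, 14.9 in seed, 50.8 and 24.2 in mature and young leaf, 6.05 in young stem and 3.67 in inflorescence, so that FPKM + 1 was 5.89-fold higher in pericarp than in seed. Unigene134293 had a like order, with 29.5 in pericarp, 5.49 in seed, 17.2 in mature leaf and 15.2 in young leaf. Both were highest in pericarp among all tissues, and both were listed at 0 in mature stem.

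8-Hydroxygeraniol oxidoreductase (8HGO), which oxidises the G10H product further, had unigenes with large differences in both directions, and those towards seed were the largest of the iridoid list on that side. Unigene122572 was the most highly expressed iridoid unigene of both fruit tissues, with 494 FPKM in pericarp and 107 in seed, and was high throughout the plant, at 591 in young stem, 528 and 483 in young and mature leaf and 359 in inflorescence. Unigene107582 had 53.1 in seed and 1.03 in pericarp, with 6.26 in inflorescence and at most 0.79 in the leaves and stems. Unigene222835 had 42.1 in seed and 1.18 in pericarp, with 12.9 in inflorescence, 7.79 in young stem, 6.31 in young leaf and 1.81 in mature leaf. Their FPKM + 1 was 26.7-fold and 19.7-fold higher in seed. In all, 4 of the 7 compared 8HGO unigenes were higher in seed and 1 in pericarp, while the sum was higher in pericarp (568 against 336), because Unigene122572 alone made up 87% of the pericarp sum.

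Iridoid synthase (IS), which forms the iridoid ring system, differed little. Its sums were 126 FPKM in pericarp and 95.8 in seed, and of 7 compared unigenes 4 lay within 2-fold, 2 were higher in pericarp and 1 in seed, which became 5, 1 and 1 as TPM. The strongest, Unigene241827, had 49.7 in pericarp and 36.2 in seed, below its 86.8 in mature leaf, 72.1 in inflorescence and 66.4 in young leaf and close to 48.8 in young stem. The only unigene named iridoid oxidase (IO), Unigene100054, was not compared, with 0.32 in pericarp, 0.89 in seed and 1.94 in inflorescence.

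The later steps, from glucosylation to loganin and secologanin, were led by pericarp. 7-Deoxyloganetic acid glucosyltransferase (7DLGT), which adds the glucose, was higher in pericarp for 6 of 8 compared unigenes and in seed for 1, with sums of 86.8 and 38.7 FPKM. Its strongest fruit unigene, Unigene036499, had 28.2 in pericarp, 7.98 in seed, 38.7 in inflorescence, 28.2 in young stem, 17.3 in young leaf and 17.2 in mature leaf.

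7-Deoxyloganic acid hydroxylase (7DLH), a P450 step that yields loganic acid, summed to 322 FPKM in pericarp and 86.9 in seed. Unigene120969 made up 82% of the pericarp sum and was highest there among all tissues. It had 264 in pericarp, 59.96 in seed, 62.0 and 49.2 in mature and young leaf, 8.81 in inflorescence, 8.69 in young stem and 0.48 in mature stem. FPKM + 1 was 4.34-fold higher in pericarp than in seed, and seed was on a level with mature leaf. Unigene283926 had 13.9 in pericarp, 1.51 in seed, 28.1 and 18.5 in mature and young leaf, 7.70 in young stem and 0.63 in inflorescence. In all, 3 of the 4 compared 7DLH unigenes were higher in pericarp and none in seed.

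Loganic acid methyltransferase (LAMT), which turns loganic acid into loganin, was far apart in the summed level, at 238 FPKM in pericarp and 17.5 in seed. Unigene220174 made up 97.5% of the pericarp sum. It had 232 in pericarp, 13.5 in seed, 269 in young leaf, 234 in young stem, 120 in inflorescence, 91.7 in mature leaf and 0.22 in mature stem. Seed was thus lowest of the 6 tissues, pericarp stood beside young stem and young leaf, and FPKM + 1 was 16.1-fold higher in pericarp than in seed.

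Secologanin synthase (SLS), the P450 that opens the ring of loganin, was higher in pericarp for 3 of its 5 compared unigenes, with sums of 127 and 40.4 FPKM. Unigene137214 had 91.7 in pericarp, 20.2 in seed, 54.5 in inflorescence, 54.3 in young stem, 27.3 in young leaf and 22.4 in mature leaf, and was highest in pericarp. Unigene075938, chosen after its values were seen, was the strongest SLS unigene of the plant at 1929 in young leaf, but had only 8.62 in pericarp and 3.45 in seed. The SLS unigene with the highest level in leaf was thus not the one with the highest level in pericarp.

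**Figure D4:**
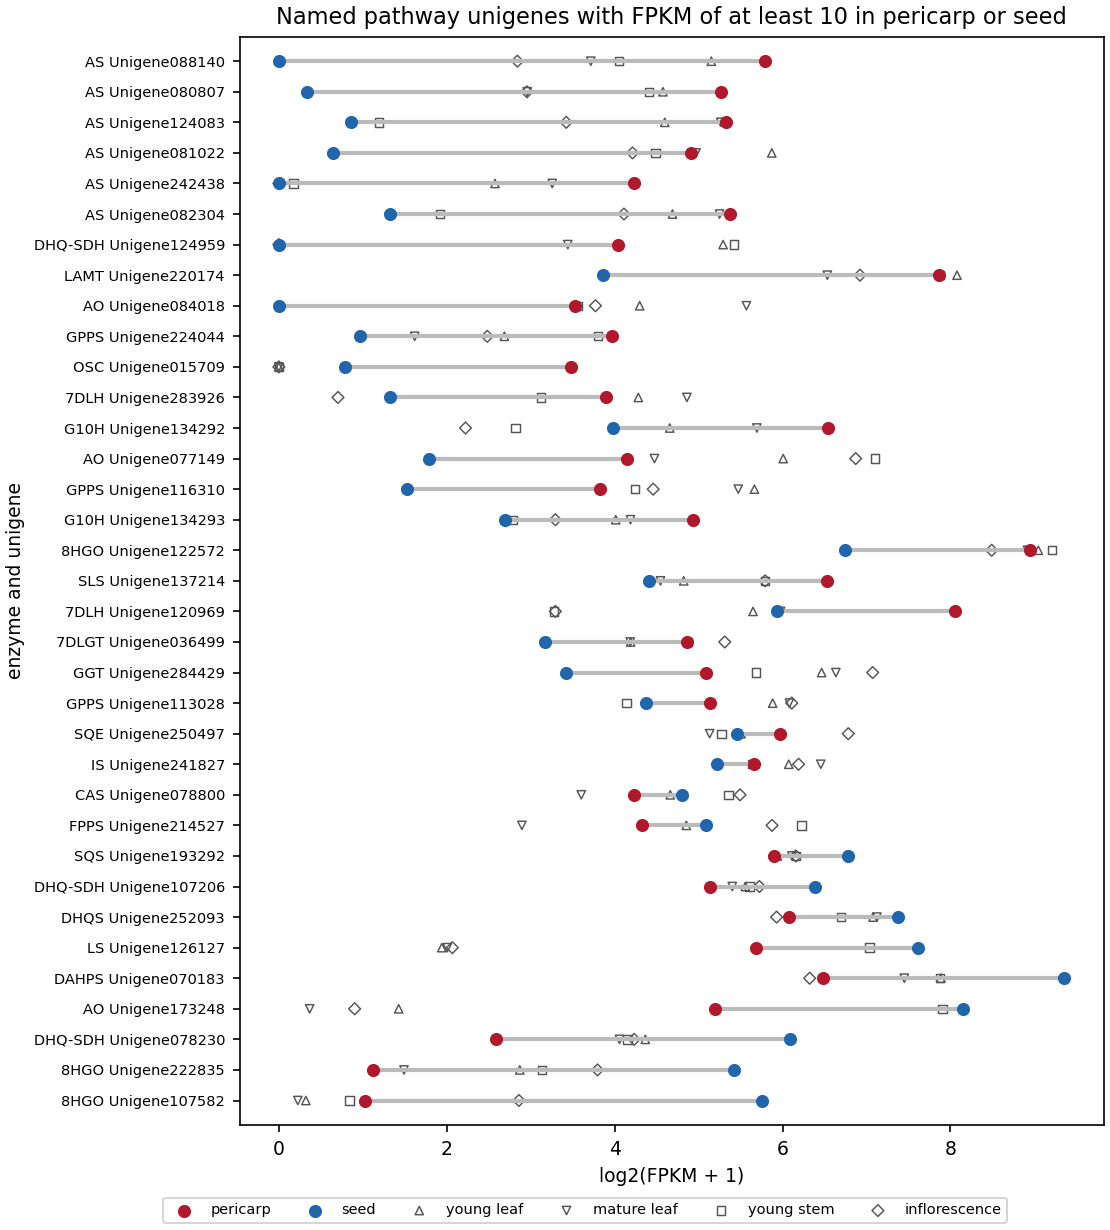
Level of each named pathway unigene with at least 10 FPKM in pericarp or seed, as log2(FPKM + 1): red points are pericarp, blue points seed, and open symbols the leaves, young stem and inflorescence. Rows run from the largest difference towards pericarp (AS Unigene088140, 54.6 against a listed 0) to the largest towards seed (8HGO Unigene107582, 1.03 against 53.1).

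Triterpenoid unigenes differed in both directions, between enzymes and also within AO, AS, LS and SQE, the enzyme abbreviations explained below. Of the 182 listed, 99 were compared and 83 were below 1 FPKM in both. Of the 99, 35 (35.4%) were higher in pericarp and 23 (23.2%) in seed, beside 24.6% and 27.3% of all compared unigenes, and 41 lay within 2-fold. This background is again not matched by level. At a limit of 5 FPKM the shares were 40.8% and 20.4%, beside 23.1% and 19.6% of all unigenes at that limit. At 4-fold there were 22 (22.2%) and 5 (5.05%), beside 5.45% and 5.53% of all compared unigenes. The median was 0.07, a sign that turned to -0.06 after rescaling to TPM. The summed level was higher in seed (1272 FPKM against 954), although more unigenes were higher in pericarp, and 3 unigenes (Unigene173248, Unigene126127 and Unigene279898) held 51.2% of the seed sum.

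The steps before cyclisation were nearly level. Farnesyl diphosphate synthase (FPPS) summed to 54.1 FPKM in pericarp and 59.4 in seed. Its unigene with the highest fruit level, Unigene214527, had 19.0 and 33.1, with 73.9 in young stem and 57.7 in inflorescence. Unigene080179, named after its values were seen, leaned slightly the other way. It had 32.1 in pericarp and 26.3 in seed and held 59.3% of the pericarp sum. All 5 compared unigenes of squalene synthase (SQS), which joins a pair of farnesyl units, lay within 2-fold, although the strongest passed 2-fold towards seed as TPM (-1.01). This unigene, Unigene193292, had 58.8 in pericarp and 109 in seed beside 60.4 to 70.6 in the leaves, young stem and inflorescence. Squalene epoxidase (SQE), which prepares squalene for cyclisation, had 4 unigenes higher in each tissue and 6 within 2-fold, and 4 in pericarp and 6 in seed as TPM. Its strongest unigene, Unigene250497, had 61.7 in pericarp, 43.1 in seed and 109 in inflorescence. Cycloartenol synthase (CAS), the cyclase of sterol synthesis, had 1 compared unigene of 8, Unigene078800, at 17.8 in pericarp and 26.8 in seed. Cucurbitadienol synthase (CBS) was weak in both, at a sum of 6.47 and 7.63, with 5.46 in pericarp and 3.85 in seed for its strongest unigene, Unigene275362. Of the labels that the study does not expand, DH had 1 compared unigene (Unigene051918, a listed 0 in pericarp and 1.16 in seed), DS had 1 (Unigene229364, 1.35 and 0.90) and TS had none.

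Amyrin synthase (AS), the cyclase that makes the skeletons of ursolic and oleanolic acid, was strongly on the pericarp side at its higher levels. Its 49 unigenes summed to 301 FPKM in pericarp and 63.3 in seed. Of the 30 compared, 13 were higher in pericarp and 5 in seed, and these 5 were weak, with 1.09 to 3.99 FPKM in seed. Of the 8 AS unigenes with at least 10 FPKM in either tissue, 6 passed 4-fold in FPKM + 1 towards pericarp, and the other 2 lay within 2-fold. Among these 6, Unigene088140 and Unigene242438 were listed at 0 in seed, so their ratio depends on the added 1.

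These 6 fell into similar profiles. Unigene088140 had 54.6 FPKM in pericarp, 34.6 in young leaf, 15.6 in young stem, 12.2 in mature leaf and 6.17 in inflorescence, and was listed at 0 in seed. Unigene080807 had a like order, with 37.5 in pericarp, 0.26 in seed, 22.9 in young leaf, 20.3 in young stem, 6.78 in mature leaf and 6.76 in inflorescence. In both, pericarp was the highest tissue and young leaf came next.

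Unigene082304 and Unigene124083 shared another order, in which mature leaf was close to pericarp and young stem was low. Unigene082304 had 40.4 in pericarp, 1.5 in seed, 37.1 and 24.8 in mature and young leaf, 16.3 in inflorescence and 2.78 in young stem. Unigene124083 had 39.3 in pericarp, 0.82 in seed, 37.4 and 23.2 in mature and young leaf, 9.73 in inflorescence and 1.29 in young stem. Unigene242438 had 17.8 in pericarp, 8.56 and 4.96 in mature and young leaf and 0.13 in young stem, with a listed 0 in seed and inflorescence. Unigene081022 was the exception in its highest tissue, with 57.6 in young leaf against 29.0 in pericarp and 0.56 in seed. All 6 were listed at 0 in mature stem. Whether unigenes with such matched profiles are copies of 1 gene was not tested, and the estimation of FPKM divides reads between similar unigenes, so their single values are less certain than their sum.

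Unigenes with the unexpanded label OSC were weaker but on the same side. All 3 compared OSC unigenes were higher in pericarp, with sums of 19.1 FPKM in pericarp and 2.12 in seed. Unigene015709 had 10.2 in pericarp and 0.73 in seed and was listed at 0 in each of the other 5 tissues.

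Lupeol synthase (LS), the cyclase that makes lupeol, and the unigenes named amyrin oxide (AO) carried the seed side by level. LS summed to 249 FPKM in seed and 98.5 in pericarp, although 7 of 14 compared LS unigenes were higher in pericarp and 4 in seed. Unigene126127 made up 78.2% of the seed sum, with 195 in seed, 50.4 in pericarp, 130 in young stem, 3.19 in inflorescence, 3.02 and 2.84 in mature and young leaf and 0.40 in mature stem. Without it, 54.1 remained in seed and 48.1 in pericarp.

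AO summed to 607 FPKM in seed and 236 in pericarp. Unigene173248 made up 46.7% of the seed sum and had an order of tissues like that of the LS unigene above, with 284 in seed, 239 in young stem, 35.6 in pericarp, 1.69 in young leaf, 0.87 in inflorescence and 0.29 in mature leaf. Both were thus high in seed and young stem, intermediate in pericarp and low in leaf and inflorescence. The FPKM + 1 ratio of seed to pericarp was 7.77 for Unigene173248 and 3.81 for Unigene126127. Of the 24 compared AO unigenes, 8 were higher in seed and 7 in pericarp. All 8 of the former had their highest level of the 6 tissues in seed and none of the 7 latter had it in pericarp. Over all unigenes the shares were 66.1% and 64.2%, a background not matched by level. Unigene077149 was one of the latter, with 16.7 in pericarp and 2.46 in seed but 137 in young stem and 116 in inflorescence. Unigene084018 had 10.5 in pericarp and 46.5 in mature leaf and was listed at 0 in seed. No triterpenoid unigene was in the P450 list.

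Gallotannin unigenes were split by number and led by seed in level. Of the 37 listed, 22 were compared and 15 were below 1 FPKM in both. Of the 22, 8 (36.4%) were higher in pericarp and 9 (40.9%) in seed, beside 24.6% and 27.3% of all compared unigenes, a background not matched by level. At a limit of 5 FPKM the shares were 40% on each side, beside 23.1% and 19.6% of all unigenes at that limit. At 4-fold there were 2 on each side (9.09%), beside 5.45% and 5.53% of all compared unigenes. The median was -0.04. As TPM, 8 were higher in pericarp and 10 in seed. The sums were 444 FPKM in pericarp and 1189 in seed. For 8 of the 9 seed unigenes seed was the highest of the 6 tissues, and for 1 of the 8 pericarp unigenes pericarp was. Over all unigenes called on each side the shares were 66.1% and 64.2%, a background not matched by level.

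3-Deoxy-D-arabinoheptulosonate 7-phosphate synthase (DAHPS), the entry enzyme of the shikimate pathway, made most of this gap, with 779 FPKM in seed and 184 in pericarp. Unigene070183 had 655 in seed, 88.7 in pericarp, 235 in young leaf, 234 in young stem, 174 in mature leaf, 79.1 in inflorescence and 0.32 in mature stem. It alone made up 55.1% of the seed sum of the whole list, and its FPKM + 1 was 7.32-fold higher in seed. Another DAHPS unigene, Unigene108827, was level, at 80.3 in pericarp and 79.7 in seed. It is named here after its values were seen.

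The next enzymes were, like DAHPS, higher in seed at their strongest unigenes. 3-Dehydroquinate synthase (DHQS), which closes the ring, summed to 171 FPKM in seed and 71.7 in pericarp, almost all from Unigene252093 with 165 in seed, 66.8 in pericarp, 139 and 134 in mature and young leaf, 103 in young stem and 59.9 in inflorescence. For 3-dehydroquinate dehydratase/shikimate dehydrogenase (DHQ-SDH), whose reactions lead towards shikimate, 4 compared unigenes were higher in each tissue, and 4 in pericarp and 5 in seed as TPM. Unigene107206 had 82.4 in seed, 34.3 in pericarp and 41.3 to 51.9 in the leaves, young stem and inflorescence. Unigene078230 had 66.9 in seed and 5.03 in pericarp, an 11.3-fold difference in FPKM + 1, with 15.7 to 19.6 in those tissues. Unigene124959 went the other way, with 15.5 in pericarp, 41.8 in young stem, 38.2 in young leaf and 9.87 in mature leaf, and was listed at 0 in seed and inflorescence.

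Gallate glucosyltransferase (GGT), which joins gallate to glucose and so starts gallotannin assembly, lay on the opposite side from the enzymes before it. Both GGT unigenes were higher in pericarp, and their sums were 58.1 FPKM in pericarp and 15.8 in seed. Unigene284429 had 32.9 in pericarp, 9.67 in seed, 134 in inflorescence, 98.4 and 87.4 in mature and young leaf and 50.6 in young stem. Both fruit tissues were therefore below the other 4.

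P450 unigenes leaned towards pericarp by number, while a few very strong ones stood in seed. Of the 262 listed, 153 were compared and 109 were below 1 FPKM in both, of which 72 had their highest level in mature stem. Of the 153, 84 (54.9%) were higher in pericarp and 24 (15.7%) in seed, with 45 within 2-fold and a median of 1.17. The study kept P450s of more than 500 bp with at least 5 FPKM in any tissue. The nearest background by level is therefore the 38526 compared unigenes with at least 5 FPKM in any tissue, of which 22.7% were higher in pericarp and 19.4% in seed, with a median of 0.00. At 4-fold there were 47 P450s in pericarp and 19 in seed (30.7% and 12.4%), beside 10% and 8.91% of that background. Of the 84, 38 were highest in pericarp among the 6 tissues, and of the 24, 18 were highest in seed. Over all unigenes called in each direction the shares were 64.2% and 66.1%. Those shares are not limited to unigenes with at least 5 FPKM, and a P450 could enter its list by its level in another tissue. They are therefore not a matched background. The summed level was nearly equal, at 3535 FPKM in pericarp and 3225 in seed, and at 3625 and 3629 as TPM.

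The seed sum was concentrated. Unigene078193, Unigene072762, Unigene288422 and Unigene174127 together held 57.3% of it, while the 4 strongest P450s of pericarp held 17.1% of the pericarp sum. Without these 4 in each tissue, 2932 FPKM remained in pericarp and 1376 in seed.

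All 8 of the P450s with the largest differences towards seed were highest in seed. Unigene174127 had an FPKM of 318 in seed, 3.46 in pericarp, 6.87 in young stem, 2.87 in young leaf, 0.29 in mature leaf and 0.16 in inflorescence, which made FPKM + 1 71.5-fold higher in seed than in pericarp. Unigene288422 had 337 in seed, 5.72 in pericarp and 22.4 in young stem, Unigene072762 had 586, 11.7 and 82.4, and Unigene078193 had 608, 20.9 and 56.8 in the same order. In these 4, young stem was the next tissue after seed. Unigene036108 had 36.8 in seed and was listed at 0 in all other 6 tissues, and Unigene077444 had 21.9 in seed and at most 0.20 elsewhere. Unigene081475 had 49.2 in seed and 1.72 in pericarp, but also 33.0 in mature leaf and 21.6 in young leaf. Unigene129379 was weaker, with 12.5 in seed and at most 0.47 elsewhere.

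**Figure D5:**
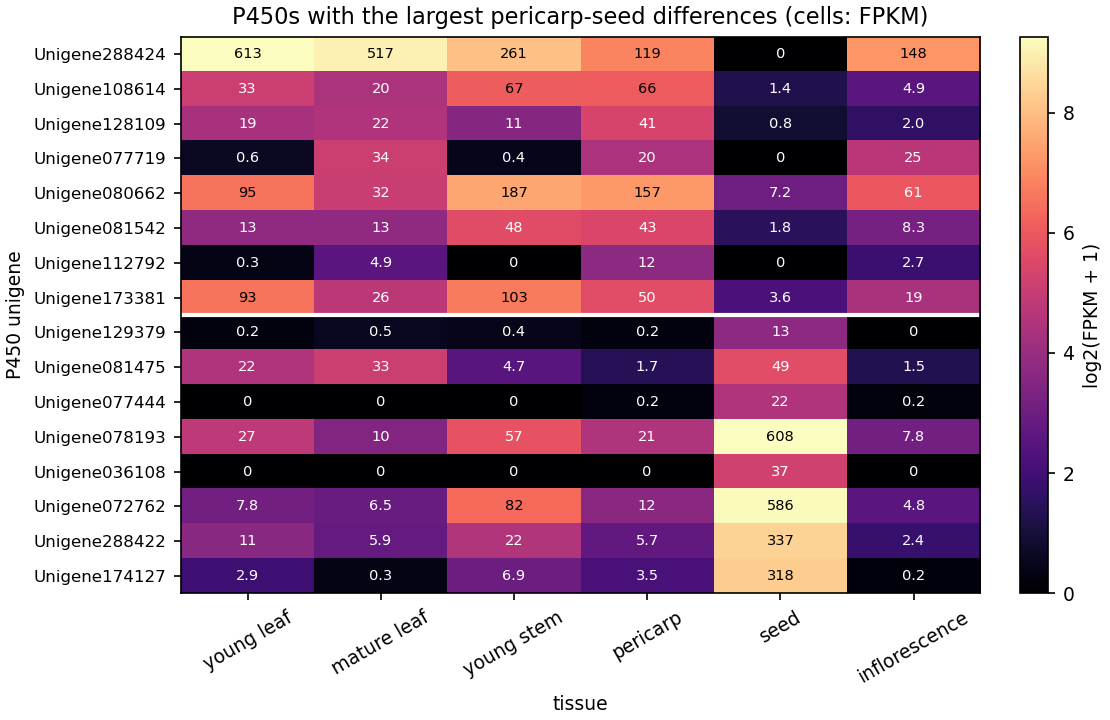
FPKM (numbers in the cells) and log2(FPKM + 1) (colour) in 6 tissues for the 8 P450 unigenes with the largest difference towards pericarp (above the white line) and the 8 towards seed (below it). All 8 in the lower block are highest in seed, whereas 2 of the 8 in the upper block are highest in pericarp.

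The P450s with the largest differences towards pericarp were mostly leaf and stem P450s too. Unigene288424 had 119 in pericarp and was listed at 0 in seed, but was higher in young leaf (613), mature leaf (517), young stem (261) and inflorescence (148). Unigene080662 had 157 in pericarp, 7.19 in seed, 187 in young stem, 94.7 in young leaf, 61.0 in inflorescence and 31.8 in mature leaf. Unigene108614 had 66.4 in pericarp and 1.44 in seed, beside 66.9 in young stem. Only Unigene128109 and Unigene112792 of these 8 were highest in pericarp, the first with 40.6 in pericarp, 0.84 in seed and 21.8 in mature leaf, and the second with 12.2 in pericarp, a listed 0 in seed and 4.86 in mature leaf. The other 3, Unigene077719, Unigene081542 and Unigene173381, had 20.5, 42.9 and 50.2 in pericarp and between a listed 0 and 3.62 in seed.

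Some P450s were restricted to the fruit. Of the 153 compared, 11 (7.19%) stayed below 1 FPKM in the leaves, young stem and inflorescence, with 4 of them higher in pericarp and 7 in seed. The share was 27.2% over all compared unigenes, but that background is not matched by level. The P450s had to reach 5 FPKM in some tissue, whereas 61.3% of all compared unigenes had a higher fruit value between 1 and 3. Whether P450s differ from unigenes of like level in this respect was not tested. Unigene110160, chosen here after its values were seen, was the strongest of these, with 52.6 in pericarp and 12.9 in seed against 0.57 in inflorescence and a listed 0 in the leaves and stems.

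The study had picked 45 of these P450s for a correlation of their levels across the tissues with iridoids, so this selection is not independent of the levels described here. Of the 45, 31 were compared, 18 (58.1%) were higher in pericarp, 1 in seed and 12 within 2-fold. Of the P450s outside this selection 122 were compared, and 66 (54.1%) were higher in pericarp and 23 (18.9%) in seed. The selection summed to 494 FPKM in pericarp and 94.0 in seed. Its one unigene on the seed side, Unigene126864, had 0.34 in pericarp and 2.51 in seed. Unigene106754, a P450 that the study singled out, was not compared, since it had 0.27 in pericarp and 0.19 in seed beside 5.57 in young stem.

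At the limit of 1 FPKM, the listed unigenes just inside and just outside were alike. Inside stood a P450 (Unigene075298, 1.00 in pericarp and 0.82 in seed), an SQS unigene (Unigene254705, 0.66 and 1.03) and an AS unigene (Unigene084553, 1.04 and a listed 0). Outside stood an AS unigene (Unigene280392, 0.99 and 0.81), an SQE unigene (Unigene038276, a listed 0 and 0.93) and an AO unigene (Unigene017124, 0.92 and a listed 0).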

How the data were processed

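The deposited table holds FPKM per unigene for all 7 tissues. According to the study's methods, the authors trimmed the reads with Trimmomatic, joined 3 *de novo* assemblies, removed redundancy with CD-HIT-EST, used Bowtie 2 for mapping and RSEM to obtain FPKM. Trimmomatic and RSEM also stand in the submitters' notes, without versions. FPKM holds no counts, so absolute depth is unknown and no interval is given. RSEM divides reads among similar unigenes, which makes values of near copies less certain. Enzyme and P450 names were matched by unigene ID to the study's lists, and all IDs were found.

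Unigenes that reached 1 FPKM in pericarp or seed were compared by log2 of the ratio of FPKM + 1, with calls at 2-fold, 4-fold and 32-fold. With 1 library per tissue no test was run. Relative depth was read from the commonest FPKM ratio, in log2 bins of 0.04. The comparison, its members and its lists were chosen with earlier results of these data known.

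The text names, for each enzyme, the unigene with the highest fruit FPKM and those with at least 10 FPKM and a 4-fold difference, the 8 P450s and the 8 unigenes of any kind with the largest differences on each side, the 5 highest unigenes of each tissue, Unigene106754, the members nearest the limit of 1 FPKM, and a few others named after their values were seen, including the 3 unigenes that held the most of the triterpenoid seed sum and the 1 selected P450 on the seed side. Alternatives were pseudocounts of 0.1 and 5, no FPKM limit, a limit of 5, TPM, median-ratio rescaling and leaving out unigenes near-exclusive to mature stem. Tools were matplotlib 3.10.9, scipy 1.17.1, pandas 2.3.3, numpy 2.4.6 and Python 3.11.15. The calculation was checked only on 4-fold changes planted without noise in well expressed seed values. That check covers neither weak unigenes nor a listed 0. Metabolite levels and sequences were not used here.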

Additional observations from a re-analysis of the deposited data

How the results depend on the processing

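None of the 77 named unigenes run under the alternatives changed the sign of its difference. Unigenes named only after their values were seen, such as the level Unigene108827, were not among the 77. Those nearest the limit of 1 FPKM and those not compared were not among them either. The balance of all unigenes, with more calls in seed, turned towards pericarp with a pseudocount of 5 and at a limit of 5 FPKM. The triterpenoid median changed sign as TPM (-0.06), as did the near-equal P450 sums, and the gallotannin median (-0.04) became 0.02 without a limit and 0.01 at a limit of 5 FPKM. A pseudocount of 5 lowered the counts higher in pericarp to 4576 for all unigenes, 15 for the iridoid, 17 for the triterpenoid and 5 for the gallotannin list, and those higher in seed to 3821, 4 and 8 for all unigenes, the iridoid and the triterpenoid list. A limit of 5 FPKM left 6796 and 5750 for all unigenes and 20 and 10 for the triterpenoid list, in pericarp and seed. These fell because unigenes with low values were damped or removed. The other counts stayed within 1.5 times. The pericarp share of all 2-fold calls was 47.4%, 43.9% as TPM, 54.5% with a pseudocount of 5 and 54.2% at a limit of 5 FPKM. Of 77 named unigenes, 2 moved out of the 2-fold calls with a pseudocount of 5 (the GES unigene Unigene290657 to 0.69 and the DH unigene Unigene051918 to -0.30), and the SQS unigene Unigene193292 moved into them as TPM (-1.01). No paired analysis was possible because each tissue had 1 library, so leaving out a replicate was not possible either. The limits of these data are the single libraries, the unknown absolute depth, a pericarp library estimated to be shallower and names that rest on sequence similarity.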
